A study of Mus musculus with 2 samples.

Results

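The C-type lectin and natural killer (NK) receptor genes of the mouse were taken as the genes whose symbols begin with Klr and a letter from a to k, or with Clec and a digit. This rule found 60 of the 22605 genes listed with DNase I sequencing (DHS-seq) reads in M1 cells. M1 is a murine myeloid leukemia line that grows as immature progenitors and moves toward macrophages when interleukin-6 (IL-6) is added. The groups were untreated M1 cells and M1 cells given IL-6 for 4 to 5 days, both at passages 15 to 18 in medium with horse serum, with 1 library each and no genetic change between them. Nuclei were cut lightly with DNase I, and the short fragments that open chromatin releases were sequenced.

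C-type lectin-like receptors are membrane proteins that bind sugars, lipids or other proteins through a shared fold. Myeloid cells use members such as Dectin-1 and Mincle to sense microbes and dead cells, whereas NK cells use the Ly49, NKR-P1 and NKG2 receptors to weigh activating and inhibitory ligands on other cells. In mice most of these genes lie in tandem arrays on chromosome 6, the larger of which is the NK gene complex, and the number of Ly49 genes differs between inbred strains. The mouse strain behind the M1 line is not given in the labels, while all reads were placed on the reference assembly NCBIM37.

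51 of the 60 members lie on chromosome 6. Joining members less than 1 Mb apart gave a cluster of 10 members from Klrg1 to Clec4e (chr6:122221390-123239766) and a cluster of 37 members from Klrb1a to Klra2 (chr6:128559716-131195344). The other 13 members lie alone or in groups of under 5, on chromosome 6 or elsewhere. Klraq1 on chromosome 17 matched the letters of the rule but is not a lectin-like receptor. Klrb1-ps1 is named as a pseudogene.

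For each coding span, from start to stop codon, the table gives the mean and SD of reads over the windows of 700 bases that the span touches. Reads were recovered from these means. A read of the IL-6 library carries a value of 1.03816, the scaling of the deposited table, and ratios below are M1+IL-6 over M1 on this scale. Before the log2 ratio was taken, 0.5 reads were added on both sides. A gene was compared if M1 or M1+IL-6 had over 21 reads on it, which kept 58 of the members and 18473 of all genes. Just outside this limit were Klrc1, with 8 reads in each library, and Klrc2, with 1 and 2 reads. Just inside it were Klra10, with 12 and 22 reads, Klrc3, with 15 and 23 reads, and Klrb1c, with 23 and 29 reads. The totals over non-overlapping coding spans were 8954333 reads for M1 and 8415884 for M1+IL-6. Intervals are 95% Clopper-Pearson intervals that cover counting error only, and without replicates no test between the conditions was possible. Directions are given on the deposited scale. When the libraries were instead made equal over the 88 genes of 1 window with at least 22 reads in each library, all genes shifted up by 1.88 on the log2 scale, and 58 of 59 members, all but Clec11a, were higher after IL-6.

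The Ly49 genes encode paired activating and inhibitory receptors that in mice bind MHC class I molecules. The copies resemble one another in sequence. The first 60 coding bases of 5 of the 11 Ly49 genes are shown to let the copies be compared, on the minus strand of NCBIM37. Capitals mark bases that differ from Klra2. The pieces lie at chr6:131195285-131195344 for Klra2, chr6:130330621-130330680 for Klra1, chr6:130285758-130285817 for Klra3, chr6:130141260-130141319 for Klra9 and chr6:130231881-130231940 for Klra10.
Klra2: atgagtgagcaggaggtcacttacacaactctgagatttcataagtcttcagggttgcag
Klra1: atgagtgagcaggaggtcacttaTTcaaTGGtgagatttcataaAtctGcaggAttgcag
Klra3: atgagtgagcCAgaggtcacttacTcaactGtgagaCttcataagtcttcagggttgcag
Klra9: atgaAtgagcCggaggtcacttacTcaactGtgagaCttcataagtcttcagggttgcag
Klra10: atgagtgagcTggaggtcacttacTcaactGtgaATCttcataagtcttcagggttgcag
These pieces differ from Klra2 at 8 bases in Klra1, at 5 bases in Klra3 and Klra9, and at 6 bases in Klra10. Over whole coding sequences the other Ly49 genes were 72.3% to 76.6% identical to Klra2 at aligned bases. Klra9 and Klra10 were 96.9% identical, Klra10 and Klra3 96.3%, and Klra9 and Klra3 95.9%. The share of positions of a span whose 32 bases occur nowhere else on the named chromosomes was 33.5% for Klra9, 39.1% for Klra10, 43.5% for Klra3, 57.6% for Klra2 and 85.1% for Klra1.

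Klra2, also called Ly49B, had the largest log2 ratio of the members and was singled out for this value, so it is given as a description. Its coding span (chr6:131170007-131195344, minus strand) lies 839 kb beyond Klra1, at the far end of the NK gene complex. In M1 cells its 37 windows held 33 reads, a mean of 0.892 per window (SD between windows 1.45). In IL-6-treated cells they held 84 reads, a mean of 2.36 scaled reads per window (SD 3.01). The span therefore carried few reads in both libraries, at the 5.85 percentile of all genes in M1 cells and the 10.2 percentile after IL-6. The ratio was 2.64 (1.75 to 4.08) and the log2 ratio 1.39. When the libraries were summed, 15929 genes had 100 reads or more, and 0 of these had a larger log2 ratio than Klra2, which has 117 reads. Among all 18473 compared genes, with fewer reads allowed, 73 had a larger one.
The next gene among those with 100 reads, Lilrb4, which encodes an inhibitory receptor of myeloid cells, had a log2 ratio of 1.38. The mean and SD allow the strongest window of Klra2 4 to 9 reads in M1 cells and 6 to 19 reads after IL-6. No window of the Klra2 span could therefore exceed 21 reads in either library. The annotated transcription start of Klra2 at 131197380 lies 1980 bases beyond the last window, so the reads at its promoter are not covered here. The promoter sequence of Klra2 entered only the motif counts given below.

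No other member of the 2 chromosome 6 clusters had a log2 ratio as large as that of Klra2, which follows from the choice of Klra2. Of 44 other cluster members compared, 27 had a higher and 17 a lower value after IL-6, with a median log2 ratio of 0.18, and Klra2 stood 1.21 above this median. The members closest to it were Klra10, with 12 and 22 reads and a log2 ratio of 0.90, and Klra3, with 21 and 36 reads and a log2 ratio of 0.82. For 31 of the 44 the whole interval lay below that of Klra2. The others, among them Klra10 (0.902 to 4.22) and Klra3 (1.01 to 3.21), had intervals that overlapped it. The share of all genes with an interval below that of Klra2 was not counted. Since Klra2 was chosen for its value, nothing is read from the count of 31 or from the distance of Klra2 to the median. Pooled over the reads of the rest of both clusters the ratio was 0.833 (0.800 to 0.868). This pool left out Clec1b and Clec9a, whose windows lie within Clec1a, and kept Klrc1 and Klrc2. Genes with many reads, such as Clec1a (679 and 349) and Clec12a (469 and 132), weigh most in it, whereas the median counts each gene equally. The pooled ratio of the 10 other Ly49 genes was 1.25 (1.14 to 1.37).

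Genes with few reads as a whole had higher ratios. Among all genes with a mean of both libraries under 2 reads per window, 450 were compared, their median log2 ratio was 0.50, and 167 of them (37.1%) were at least 1.5-fold higher after IL-6. Klra2, with a mean of both libraries of 1.62, belongs to this class, as do 4 other compared members. Among genes with 16 or more reads per window the median log2 ratio was -0.91, and 62.8% were at least 1.5-fold lower. The part of signal level and scaling in the value of Klra2 was not tested. Other genes between the first and last member of each cluster gave a local reference on chromosome 6. This reference is not fully separate from the members. BC035044, a compared neighbor in the cluster of Klra2, shares 6 windows with Clec2i. Gm11081 and Gm17631, which were not compared, share windows with Klra9 and Klra17. In the cluster of Klra2, 8 of 12 such neighbors were compared, of which 2 were higher and 6 lower, with a median log2 ratio of -0.73. In the cluster from Klrg1 to Clec4e the 13 compared neighbors had a median of 0.12. The highest value of both, 0.74, was that of Gm5581, the listed neighbor closest to Klra2, with 29 and 47 reads.

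**Figure D1:**
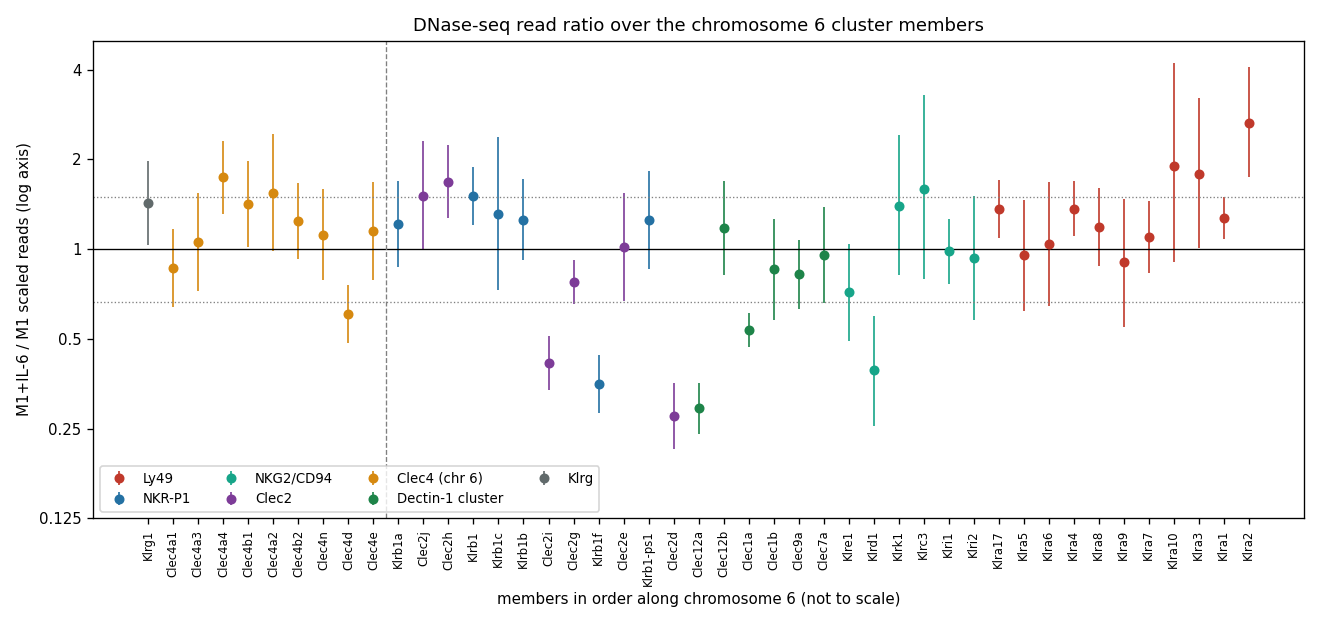
Ratio of scaled reads, M1+IL-6 over M1, for the 45 compared members of both chromosome 6 clusters in their order along the chromosome (log axis). Points are 1 library against 1 library, bars are 95% Clopper-Pearson intervals, dotted lines mark 1.5-fold, and the dashed line parts the clusters. Klra2, at the right end, has a ratio of 2.64, and the lowest ratio, 0.276, is that of Clec2d.

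9 of the 11 Ly49 genes had a higher value after IL-6, beside 51.7% of all genes, and Klra9 (38 and 33 reads) and Klra5 (48 and 44 reads) a lower one. Without any scaling 8 were higher, since Klra6 held 38 reads in each library, and on the scale of the genes of 1 window all 11 were. The median log2 ratio of the family was 0.34, against 0.03 over all genes. 3 of the 11, Klra2, Klra10 and Klra3, were at least 1.5-fold higher, where 10.8% of all genes passed this fold, and 0 were 1.5-fold lower. Nothing is read from this count, since Klra10 and Klra3 passed the limit of 21 reads only through the IL-6 library and Klra2 was chosen for its value. The intervals of Klra2, Klra17, Klra4, Klra3 and Klra1 lay above 1. In M1 cells 10 of the 11 had fewer reads per window than the median gene, which had 7.75.

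Klra1 (Ly49A), an inhibitory receptor and the exception in level, held 269 reads in M1 cells, a mean of 11.2 per window over 24 windows. After IL-6 it held 329 reads, a mean of 14.2, with a ratio of 1.27 and an interval above 1. The 11 windows at its 3′ end (chr6:130314101-130321800) held 164 and 209 of these reads. Klra4 (Ly49D), an activating receptor, held 155 and 204 reads, with a ratio of 1.37 (1.10 to 1.69). Klra17 (Ly49Q), which myeloid cells are known to use, held 143 and 187 reads, with a ratio of 1.36 (1.09 to 1.70). The 3 genes with the most reads of the Ly49 family thus differed in the same direction by less than 1.5-fold.

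Klra5, Klra6, Klra7, Klra8, Klra9 and Klra10 had intervals that included 1. Klra7 held 106 and 112 reads, and Klra8 (Ly49H), which recognizes mouse cytomegalovirus, held 86 and 98 reads. In Klra9 the reads were gathered in few of its 19 windows. A window of it held 18 to 24 of its 38 reads in M1 cells and 19 to 23 of its 33 reads after IL-6, or 47.4% to 63.2% and 57.6% to 69.7%. The span of Klra9 had the lowest unique share of the 60 members, and whether these reads arose there was not tested.

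The unique share varied with the number of reads across the members. Its median was 86.3% over the members and 94.7% over the 1242 other genes of chromosome 6 that were listed, and 33 members were under 90%. Cluster members under 60% (10 genes) had a median of 1.21 reads per window in M1 cells, those from 60% to 90% (22 genes) 4.04, and those of at least 90% (15 genes) 5.70. Klrc2, an NKG2 gene with 35.0% unique positions, held 1 and 2 reads over 16 windows. The median log2 ratios of the same classes were 0.71, 0.31 and -0.23. Over members the unique share correlated with reads per window in M1 cells (Spearman's rho 0.69, n = 60) and with the log2 ratio (rho -0.49, n = 58). These are descriptions across genes that share the same 2 libraries. How reads that match several places were handled is not given in the sources used here, and 7 of the 8 members that were at least 1.5-fold higher after IL-6 were under 90% unique.

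**Figure D2:**
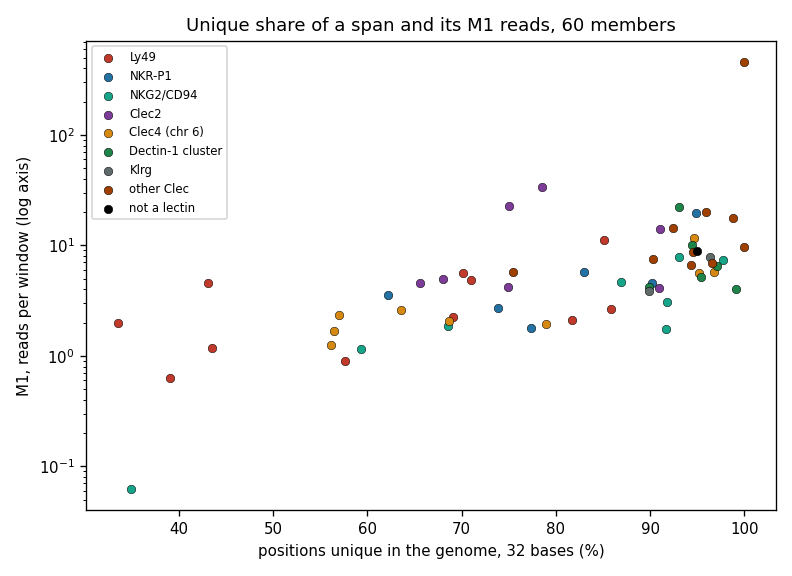
Share of positions in a span whose 32 bases are unique in the genome (horizontal axis, %) against M1 reads per window (vertical, log axis) for the 60 members, colored by family. The lowest point is Klrc2, with 0.0625 reads per window at 35.0%, and the highest is Clec11a, with 457 and no repeated position.

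Over all members, 36 of 58 (62.1%) had a higher and 22 a lower value after IL-6, beside 51.7% of all genes higher, with a median log2 ratio of 0.15. 8 members (13.8%) were at least 1.5-fold higher, beside 10.8% of all genes, and 9 (15.5%) were at least 1.5-fold lower, beside 23.2% of all genes. Without any scaling 32 members were higher and 24 lower. Klra10, Klra3 and Klrc3 passed the read limit only through the IL-6 library, and of the 55 members over it in M1 cells 5 were at least 1.5-fold higher, beside 8.49% of all genes over it there. At 2-fold, 1 member, Klra2, was higher (1.71% of all genes) and 7 were lower (13.4% of all genes). The interval lay above 1 for 13 members (29.0% of all genes) and below 1 for 10 members (34.4% of all genes). The median number of reads per window was 4.73 in M1 cells and 5.10 after IL-6, below the 7.75 and 8.14 of all genes.

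**Figure D3:**
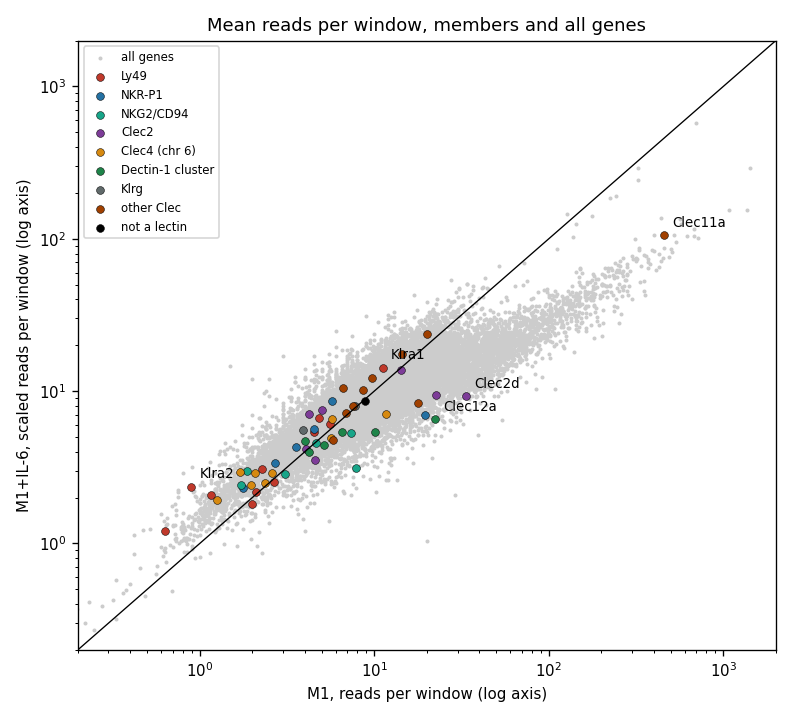
Mean reads per window in M1 cells (horizontal) and mean scaled reads per window after IL-6 (vertical) on log axes, with the compared genes in gray and the compared members colored by family. Points above the line are higher after IL-6, and Clec11a, Clec2d and Clec12a lie farthest below it among the members with many reads.

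The 9 members that were at least 1.5-fold lower all had a strong window in untreated cells. Of the 22 members with any lower value 10 had one. The mean and SD made certain a window of more than 21 reads in M1 cells for 11 members, a share of 18.3% against 35.6% of all genes. 10 of these 11 were lower after IL-6, and 9 were at least 1.5-fold lower. Of the 47 compared members without such a window 0 were 1.5-fold lower and 35 were higher. Over all compared genes, with or without such a window, 23.2% were at least 1.5-fold lower and 51.7% were higher. The shares of all genes without it were not counted, so nothing is read from the counts among the 47. Of the 8058 genes of the table with such a window 86.9% were lower and 51.1% at least 1.5-fold lower, so a lower value there was common to genes at large. Since the 11 were chosen on their M1 reads, this split is a description. After IL-6 a window above 21 scaled reads was certain for 6 members (19.2% of all genes), Clec11a, Clec12a, Clec2d, Klra1, Clec18a and Clec3b, and 4 of the 6 had one in both libraries. No window above 21 was possible for 30 members in M1 cells (35.8% of all genes) and for 28 after IL-6 (34.1% of all genes).

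The 250 bases before the annotated start are shown for 7 of the 9 members that were at least 1.5-fold lower. The start of Clec1a lies outside its windows, and the stretch before that of Clec4g overlaps annotated exons, so neither is shown. On NCBIM37 and in the direction of the gene they lie at chr7:51562330-51562579 (minus strand) for Clec11a, and on the plus strand at chr6:129130383-129130632 for Clec2d, chr6:129300012-129300261 for Clec12a, chr6:128995669-128995918 for Klrb1f, chr6:129541550-129541799 for Klrd1, chr6:128837356-128837605 for Clec2i and chr6:123211875-123212124 for Clec4d. Capitals mark GAGGAAG, a core bound by PU.1 and other ETS factors, and TGANTCA, on either strand. TGANTCA is a looser form of the AP-1 motif TGA(C/G)TCA, with any base in the middle.
Clec11a: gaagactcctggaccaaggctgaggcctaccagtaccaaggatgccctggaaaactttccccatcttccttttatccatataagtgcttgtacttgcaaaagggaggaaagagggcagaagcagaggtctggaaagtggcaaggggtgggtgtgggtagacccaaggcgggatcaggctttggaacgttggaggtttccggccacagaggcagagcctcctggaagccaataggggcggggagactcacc
Clec2d: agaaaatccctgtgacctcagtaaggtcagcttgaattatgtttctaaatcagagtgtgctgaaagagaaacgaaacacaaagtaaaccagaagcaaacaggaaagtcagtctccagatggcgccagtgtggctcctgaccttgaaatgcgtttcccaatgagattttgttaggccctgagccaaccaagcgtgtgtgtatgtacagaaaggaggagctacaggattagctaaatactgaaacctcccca
Clec12a: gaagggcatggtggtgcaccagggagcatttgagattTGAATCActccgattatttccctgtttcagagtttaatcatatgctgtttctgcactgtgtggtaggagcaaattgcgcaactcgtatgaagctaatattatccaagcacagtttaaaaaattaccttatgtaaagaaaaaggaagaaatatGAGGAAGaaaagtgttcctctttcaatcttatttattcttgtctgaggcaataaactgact
Klrb1f: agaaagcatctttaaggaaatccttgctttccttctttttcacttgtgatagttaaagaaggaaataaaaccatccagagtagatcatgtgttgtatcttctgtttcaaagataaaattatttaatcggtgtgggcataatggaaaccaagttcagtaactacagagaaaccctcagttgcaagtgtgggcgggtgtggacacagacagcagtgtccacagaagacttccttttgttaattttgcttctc
Klrd1: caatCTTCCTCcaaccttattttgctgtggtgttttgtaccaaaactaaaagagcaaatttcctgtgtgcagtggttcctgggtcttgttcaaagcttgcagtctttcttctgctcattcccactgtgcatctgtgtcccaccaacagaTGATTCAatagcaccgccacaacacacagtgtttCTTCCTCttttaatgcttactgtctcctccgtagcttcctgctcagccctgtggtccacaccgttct
Clec2i: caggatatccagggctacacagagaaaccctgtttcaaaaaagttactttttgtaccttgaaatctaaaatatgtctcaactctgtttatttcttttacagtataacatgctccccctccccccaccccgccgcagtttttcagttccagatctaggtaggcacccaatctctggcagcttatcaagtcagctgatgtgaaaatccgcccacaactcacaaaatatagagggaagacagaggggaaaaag
Clec4d: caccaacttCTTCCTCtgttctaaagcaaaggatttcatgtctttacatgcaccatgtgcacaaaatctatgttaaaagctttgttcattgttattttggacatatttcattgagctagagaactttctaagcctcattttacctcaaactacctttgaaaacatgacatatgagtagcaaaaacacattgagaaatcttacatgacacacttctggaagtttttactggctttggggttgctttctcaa
Clec12a held both motifs, Klrd1 held GAGGAAG at 2 places and TGANTCA at 1, and Clec4d held GAGGAAG. The TGANTCA matches read TGAATCA in Clec12a and TGATTCA in Klrd1, without the C or G of the AP-1 motif. Neither motif was found in Clec11a, Clec2d, Klrb1f or Clec2i. Such windows held GAGGAAG in 12 of the 60 members and in 10.8% of 22575 genes. TGANTCA was found in 7 members (11.7%) and 5.98% of genes. The STAT motif TTCNNNGAA was found in 5 members (8.33%) and 6.81% of genes. The motifs do not overlap in the windows shown, and a match is a match of letters only.

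Clec11a, which encodes a secreted growth factor for blood progenitors, had the most reads of the members. Its 4 windows held 1829 reads in M1 cells, a mean of 457 per window, and 406 reads after IL-6. The ratio was 0.230 (0.206 to 0.257). A window held 1236 to 1341 reads in M1 cells and 270 to 295 after IL-6, between 66.5% and 73.3% of the reads of the span in both libraries. The ranges of this share overlapped between the libraries, whereas the ranges of the reads did not.

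Clec2d, a ligand of the NKR-P1 receptors, held 301 reads in M1 cells and 80 after IL-6, with a ratio of 0.276 (0.213 to 0.354). Its strongest window had 209 to 226 reads in M1 cells and 23 to 38 after IL-6. Clec12a, an inhibitory receptor of myeloid cells, held 469 and 132 reads, with a ratio of 0.292 (0.239 to 0.355). The 7 windows at its 3′ end held 61 and 27 reads, and the other 14 windows held 408 and 105. In Clec12a the strongest window had 179 to 272 and 25 to 52 reads, so that in both genes its range did not overlap between the libraries.

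Klrd1 (CD94), the partner of the NKG2 receptors, held 87 and 33 reads, with a ratio of 0.394 (0.255 to 0.594). Its 3 windows at the 5′ end (chr6:129541301-129543400), which include the start, held 69 and 15 reads, and a window among them had exactly 63 reads in M1 cells and 8 to 10 after IL-6. The other 8 windows held 18 reads in each library. The difference in Klrd1 lay at its 5′ end. Klrb1f, an NKR-P1 receptor, held 314 and 107 reads, with a ratio of 0.354 (0.281 to 0.442). Its first 12 windows held 302 and 95 reads, and its last 4 windows held 12 reads in each library.

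The Clec2 genes include ligands of the NKR-P1 receptors, with 3 of 7 higher and 4 lower, beside 51.7% of all genes higher. Clec2i held 317 and 127 reads, with a ratio of 0.416 (0.336 to 0.513), and 6 of its 14 windows are shared with the span of BC035044. Clec2l, outside the clusters and among the 5 members with most reads per window after IL-6, held 369 and 343 reads, with an interval that included 1. Clec2h lay on the other side, with 84 and 136 reads and a ratio of 1.68 (1.27 to 2.23). Of their receptors, the NKR-P1 genes, 5 of 6 were higher, beside the same 51.7% of all genes. Klrb1 held 137 and 198 reads, with a log2 ratio of 0.58 and an interval of the ratio from 1.20 to 1.88. Klrb1c (NK1.1), a marker of NK cells, held 23 and 29 reads.

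**Figure D4:**
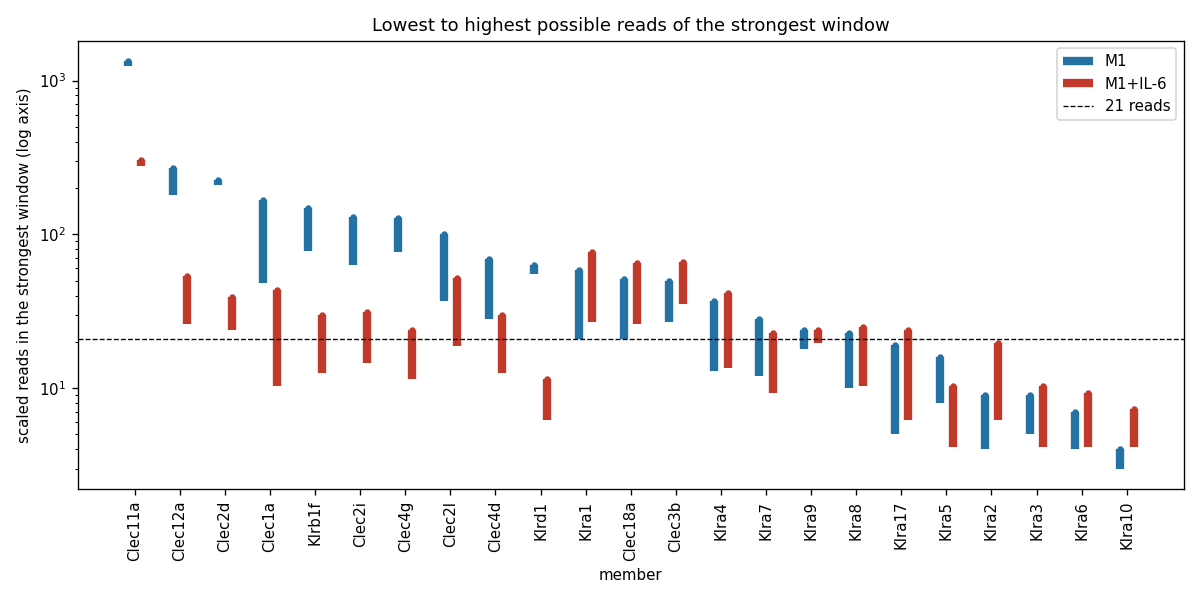
Lowest to highest number of scaled reads that the mean and SD allow in the strongest window (vertical, log axis) in M1 cells (blue) and after IL-6 (red), for the 13 members with a window certain to exceed 21 reads in either library and the other Ly49 genes. The dashed line marks 21 reads. For Klrd1 the bar moves from 55 to 63 reads in M1 cells to below the line after IL-6, and both bars of Klra2 lie below it.

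The Dectin-1 group holds receptors of myeloid and endothelial cells. Of these 5 of 6 were lower, beside 48.3% of all genes, with a median log2 ratio of -0.25. Clec1a, Clec1b and Clec9a are not separate in this count, since their windows overlap. Clec7a (Dectin-1), the receptor for fungal beta-glucan, held 63 and 58 reads, with an interval that included 1 (0.657 to 1.39). Clec9a, a receptor for dead cells, held 131 and 104 reads (0.631 to 1.07). Clec1a held 679 and 349 reads, and its span contains those of Clec1b and Clec9a. In its windows outside both it held 486 and 194 reads, with a ratio of 0.414 (0.349 to 0.490).

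The Clec4 genes on chromosome 6 include receptors for fungal and bacterial sugars and the inhibitory receptor Clec4a2 (DCIR). Of these 7 of 9 were higher, beside 51.7% of all genes, with a median log2 ratio of 0.20. Clec4d, which pairs with Mincle, was at least 1.5-fold lower, with 222 and 130 reads and a ratio of 0.608 (0.486 to 0.758). Clec4e (Mincle) held 57 and 63 reads, and Clec4n (Dectin-2) held 65 and 70, with intervals that included 1. Clec4a4 held 83 and 139 reads, with a ratio of 1.74 (1.32 to 2.31). Clec4a2 held 35 and 52 reads, with a ratio of 1.54 (0.986 to 2.44).

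The NKG2, CD94 and related genes, 6 of 8 compared, had 2 higher and 4 lower values, beside 51.7% of all genes higher. Klrk1 (NKG2D), an activating receptor, held 26 and 35 reads, with a ratio of 1.40 (0.818 to 2.42). Klrg1, an inhibitory receptor that binds cadherins, held 70 and 96 reads, with a ratio of 1.42 and an interval above 1. Of the members elsewhere, Clec3b held 180 and 205 reads, Clec18a 274 and 320, and Clec16a 2430 and 2767. Clec3a held 86 and 131 reads, with a ratio of 1.58 (1.20 to 2.10). Clec5a, a myeloid receptor that signals through DAP12, held 76 reads in each library, and Clec10a held 29 and 23. Clec4g, at chromosome 8, held 231 and 104 reads, with a ratio of 0.467 (0.367 to 0.592).

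The adaptors, kinases and phosphatases (Ptpn6, Ptpn11 and Inpp5d) that these receptors signal through had mostly lower values. Of 13 listed genes 12 were in the table under their name, with 1 higher, 11 lower and 7 at least 1.5-fold lower, beside the 23.2% of all genes. The median log2 ratio was -0.84. A window above 21 reads in M1 cells was certain for 8 of the 12. Of all genes with such a window 86.9% were lower and 51.1% at least 1.5-fold lower. Hcst (DAP10), an adaptor of NKG2D, held 417 and 107 reads, with a ratio of 0.266 (0.213 to 0.330). Tyrobp (DAP12), the adaptor of activating Ly49 receptors, held 175 and 77 reads, with a ratio of 0.457 (0.345 to 0.601). Of the ligands of Ly49 and NKG2 receptors and of other members, 5 of 7 were listed. All 5 were lower, with H2-D1 at 307 and 116 reads, beside 48.3% of all genes. A window above 21 reads in M1 cells was certain for 4 of these 5. The part of signal level in the values of both lists was not tested.

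The labels name myeloid progenitors. Immature myeloid genes carried a median of 14.1 reads per window in M1 cells, the macrophage markers 9.29 and the NK cell markers 5.37, the last below the 7.75 of all genes. After IL-6 all 6 NK cell markers, 2 of 7 macrophage markers and 2 of 5 immature myeloid markers were higher, beside 51.7% of all genes. Their median log2 ratios were 0.49, -0.43 and -0.49. Klrb1c, an NK cell marker here, is itself a member. Of all genes with a mean of both libraries of 4 to 8 reads per window 68.1% were higher. Of those with 16 or more 18.2% were. The part of signal level in the marker values was not tested. DNase I reads on coding spans are not RNA levels, and the part of cell identity in the values of the members was not tested.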

How the data were processed

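DHS-seq was measured in M1 cells without and with IL-6, with 1 library per condition. The authors digested nuclei with DNase I, aligned the reads to NCBIM37 with BWA (version not given in the sources used here) and summarized them in Seqmonk. The deposited signal values are the mean and SD of reads over windows of 700 bases, with the number of windows listed as a count. Deposited columns without values, and the number of sublocations, were not used.

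The product of mean and window number lay within 0.05 of a whole number of reads in 100% of the 55432 rows, with a read worth 1.0 in M1 and 1.03816 in M1+IL-6, and the SD then gave the sum of squares and bounds for the strongest window. The coding spans of all 146 member rows equal those of GENCODE M1. The row with most windows stood for a gene. The steps were tested on 4000 spans with simulated reads: totals and bounds came out right in all, and for 193 of 200 changed spans the simulated fold lay within its 95% interval. The value of a read is found from spans with few reads, and a first simulated set that left such spans out could not be recovered. With 1 library per condition no test was made.

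The members and lists were chosen with earlier results of these data known. The genes named are Klra2, all Ly49 genes, the 5 largest and 5 smallest log2 ratios among members with at least 100 reads, the 5 with most reads per window in each library, members near 21 reads, and a set of well-known receptors. Clec1a, Clec2i and Clec4g, the genes of the pathway and marker lists and the neighbors named were given beside these, some after their values were seen. Unique positions were counted over both strands of NCBIM37 with sequences of 32 bases. Alternatives covered the scaling, the reads added, the row, the read limit, the fold and the unique share. The software was matplotlib 3.10.9, biopython 1.88, numba 0.67.0, scipy 1.17.1, pandas 2.3.3 and numpy 2.4.6 under Python 3.11.15.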

Additional observations from a re-analysis of the deposited data

How the results depend on the processing

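No paired analysis was possible because there was only 1 library of untreated and 1 of treated cells. Of 55 alternative values 44 lay inside the 95% interval around the value reported (for medians, that of the middle of the ranked genes) or, for counts, within 1.5 times of it. Among members with at least 90% unique positions the median log2 ratio was -0.039, the median of the cluster members was -0.23, and 1 member was at least 1.5-fold higher. With more than 50 reads required, 5 members were higher by this fold, as were 5 when the interval also had to exclude 1, and 1 member, Klra2, was 2-fold higher. Making the libraries equal over the genes of 1 window with at least 22 reads in each library, a scaling chosen after seeing the data, gave a log2 ratio of 3.26 for Klra2, medians of 2.01 for the members and 2.05 for the cluster members, 54 members higher and 0 lower by 1.5-fold, while all genes had a median of 1.94. What causes the shifts was not tested. Few reads limit several values: Klra10, Klra3 and Klra2 rest on 12, 21 and 33 M1 reads, and Klrc1 and Klrc2 were not compared.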
